A study of Mus musculus with 21 samples.

Results

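TRIM proteins carry a tripartite motif at the N terminus: a RING finger, 1 or more B-boxes and a coiled coil. Most are E3 ubiquitin ligases, in which the RING recruits the ubiquitin-loaded enzyme while a variable C-terminal domain binds the substrate. MAGE proteins bind RING ligases and change their activity or their targets. Pairs described with human proteins include MAGE-A2, MAGE-A3 and MAGE-C2 with TRIM28, MAGE-L2 with TRIM27 and MAGE-A1 with TRIM31. In the testis several TRIM genes are transcribed mainly in germ cells, and another set of the family is induced by interferon in somatic and immune cells.

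The members described here are the genes with a symbol of the form Trim plus a number and at most 1 letter, with a mean of at least 0.5 TPM (an abundance per unit of transcript length, scaled to a fixed sum in each library) over 21 libraries. Of 68 such symbols 50 were members, out of 55573 entries in the table and 21450 entries at or above the same floor. The rule selects by family name and level, so binding to a MAGE protein was not measured for any of them. The libraries were whole testes of C57BL6 male mice: Mageb4 knockout 72 h after heat shock (n = 5), wild type 72 h after heat shock (n = 4), Mageb4 knockout without heat shock (n = 6) and wild type without heat shock (n = 6), compared to learn how loss of Mageb4 alters the transcriptome at rest and after heat. The sources used here give neither the age of the mice, the dose of heat nor the design of the knockout allele. The labels call the replicates biological and name no animal or litter, so p-values measure the spread between these libraries.

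Mageb4 itself, the targeted gene, averaged 0.120 TPM in heated knockout, 8.03 TPM in heated wild type, 0.0467 TPM in unheated knockout and 1.80 TPM in unheated wild type. On the log2(TPM + 1) scale the correlation between libraries of a group was 0.974 to 0.994. TPM keeps no read depth, so the counting error of low members is unknown and precision rests on the number of libraries. The third heated wild-type library held 3670 TPM of 8 epididymal marker genes in sum, while the lowest of that group held 12.0 TPM. Results are given without that library where it changed a call.

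Together the 50 members made up 1864 ± 102 TPM in heated knockout (SD, n = 5), 1312 ± 82.8 TPM in heated wild type (n = 4), 2593 ± 28.2 TPM in unheated knockout (n = 6) and 2617 ± 43.4 TPM in unheated wild type (n = 6). In unheated wild type the mean ran from 0.173 TPM for Trim34b to 527 TPM for Trim36. The highest were Trim36 (513 ± 27.7 TPM in unheated knockout and 527 ± 28.2 TPM in unheated wild type), Trim28 (422 ± 10.2 and 414 ± 2.66 TPM, in the same order) and Trim37 (323 ± 13.9 and 328 ± 15.3 TPM). Trim27 followed at 215 ± 7.27 TPM in unheated knockout and 224 ± 5.54 TPM in unheated wild type. Trim80, Trim17 and Trim69 lay between 149 and 167 TPM in both unheated groups, and their ranges overlapped there. Closest to the floor, Trim9 was inside with a mean of 0.610 TPM and Trim16 outside with 0.371 TPM. Trim31, the partner described for MAGE-A1, was below the floor, at a mean of 0.00143 TPM over the libraries.

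Heat split the family into members that rose and members that fell, in both genotypes. In the knockout 25 of 50 members rose and 18 fell (43 in all, 86%), and 7 did not pass (limma on log2(TPM + 1), Benjamini-Hochberg adjusted p under 0.05 over 21450 entries). Of all entries 80.6% passed in that comparison, 40.3% higher and 40.2% lower. In wild type 29 members rose and 21 fell, which is all 50, where 90.4% of all entries passed, 46.4% higher and 44% lower. Since most entries passed, members were also counted at a log2 change of at least 1. In the knockout 10 rose (20%, against 11.1% of all entries) and 6 fell (12%, against 15.2%) by that much. In wild type 22 rose (44%, against 28.9%) and 14 fell (28%, against 28%) by that much. The median log2 change of the members was 0.22 in the knockout and 0.64 in wild type, where the medians of all entries were 0.01 and 0.06. Median-of-ratios scaling moved the median of all entries by -0.10 in the wild-type comparison, and by less than that in the others. In bulk tissue, fewer cells of a type and less RNA per cell cannot be told apart.

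**Figure D1:**
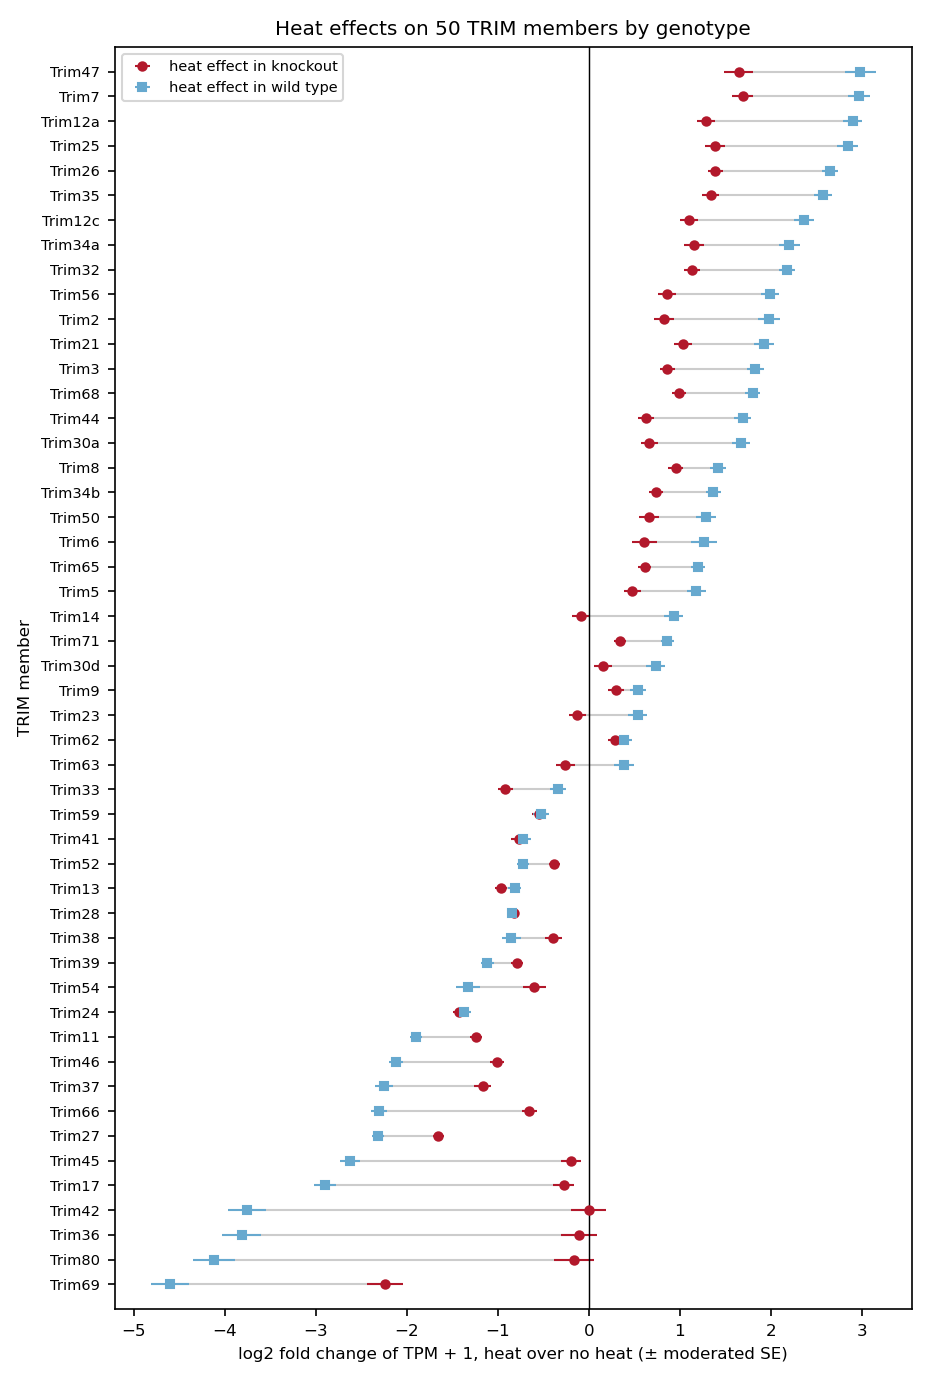
Log2 fold change of TPM + 1, heat over no heat, for each of the 50 TRIM members, with circles for the knockout and squares for wild type. Bars are moderated standard errors. Squares lie further from 0 than circles for most members, and circles of Trim42, Trim36, Trim80 and Trim45 sit next to 0 while their squares lie at -2.62 or below.

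All 25 members that rose in the knockout also rose in wild type, where they were 25 of 29. Of the 18 that fell in the knockout, 17 fell in wild type, where they were 17 of 21. The exception was Trim63, a muscle ligase known as MuRF1, with a log2 change of -0.26 ± 0.10 (SE) in the knockout (adjusted p = 0.0259) and 0.39 ± 0.11 in wild type. Its knockout call was lost with quantile normalization and without heated knockout replicate 1 or unheated knockout replicate 1, 2 or 6 (adjusted p = 0.052 to 0.0677). The 2 heat effects use separate libraries throughout. How often calls agree between the genotypes was not counted over all entries, of which 80.6% passed in the knockout and 90.4% in wild type. Tested directly, the difference of the heat effects (knockout minus wild type) passed for 43 members, 15 positive and 28 negative. Of all entries 77% passed, 31.6% positive and 45.4% negative. Among the 29 that rose in wild type, the difference was negative for 27, and Trim62 and Trim9 did not pass. For Trim9 the difference (-0.24 ± 0.12, adjusted p = 0.0776) passed with quantile normalization (0.00529) and without heated knockout replicate 4, unheated knockout replicate 5 or heated wild-type replicate 4 (0.0205 to 0.0462). Among the 21 that fell in wild type it was positive for 15 and negative for 1, Trim33. These counts use the heated wild-type libraries on both sides, so they describe how the heat effects differ and are not a further test. In 42 of 50 members (84%) the heated knockout mean lay between those of heated wild type and unheated knockout. The same held for 74% of all entries.

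Marker genes of testis cells also changed with heat, and not all lists followed the same pattern. The summed level of 8 round spermatid markers was 961 to 1239 TPM in heated knockout, 336 to 476 TPM in heated wild type, 2049 to 2180 TPM in unheated knockout and 2139 to 2252 TPM in unheated wild type. The sum of 8 elongating spermatid markers was 71729 to 90146 TPM in heated knockout, 31940 to 43482 TPM in heated wild type, 45446 to 52626 TPM in unheated knockout and 43036 to 54358 TPM in unheated wild type. For 8 pachytene and diplotene spermatocyte markers the sum was 442 to 634, 435 to 537, 1213 to 1249 and 1212 to 1341 TPM in the same order of groups. Of these lists, 7 of 8 round spermatid genes fell in heated knockout and 8 of 8 in heated wild type. The elongating spermatid genes rose in 8 of 8 cases in heated knockout, while 4 rose and 3 fell in heated wild type. Of the 8 spermatocyte genes 7 fell and 1 rose in each genotype. The 10 Sertoli cell markers summed to 4684 to 6862, 10388 to 12915, 1630 to 2202 and 1294 to 1480 TPM, and the 8 markers of macrophages and leukocytes to 118 to 162, 203 to 305, 54.3 to 77.5 and 45.7 to 55.8 TPM. All 18 of these somatic genes rose with heat in each genotype, and so did all 7 Leydig cell markers. So did the 5 markers each of peritubular myoid cells, endothelium and red blood cells. Not all germ cell lists fell: of 7 spermatogonial markers 6 rose and 1 did not pass in each genotype (median log2 0.51 in the knockout and 1.24 in wild type). Of all entries 40.3% rose and 40.2% fell in the knockout, and 46.4% rose and 44% fell in wild type. Compared after heat, 3 of the 7 Leydig markers were lower in the knockout and 4 did not pass. In that comparison 10 of 10 Sertoli markers and 8 of 8 macrophage and leukocyte markers were lower in the knockout, beside 47.2% of all entries. The part of the cell mix in the TRIM values was not tested.

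The 2 members with a described MAGE partner, Trim28 and Trim27, fell with heat in both genotypes. So did 40.2% of all entries in the knockout and 44% in wild type. Trim28 (chromosome 7 at 12999114 to 13031035 of mm10) encodes KAP1, the corepressor that KRAB zinc finger proteins recruit to silence transposons. It stood at 230.61, 247.3, 230.08, 229.28 and 254 TPM in heated knockout and at 250.02, 224.19, 216.09 and 230.68 TPM in heated wild type. Without heat it ran from 410.63 over a median of 421.615 to 438.06 TPM in the knockout and from 410.2 over 413.875 to 417.69 TPM in wild type. Every heated library was below every unheated one, and the genotypes overlapped after heat. The log2 change with heat was -0.82 ± 0.04 (SE) in the knockout (adjusted p = 1.41e-13) and -0.85 ± 0.04 in wild type (adjusted p = 2.99e-14). The heat effects differed by 0.02 ± 0.06 (adjusted p = 0.744), and the sign of that difference depended on the scaling (0.12 with median-of-ratios scaling, adjusted p = 0.0391, and -0.13 with quantile normalization, adjusted p = 0.0319).

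Trim27 (chromosome 13 at 21179445 to 21194724) encodes the ligase that MAGE-L2 directs to the endosomal WASH complex. Its TPM was 73.85, 62.63, 65.81, 58.26 and 79.92 in heated knockout and 48.14, 40.31, 42.6 and 45.42 in heated wild type. Unheated knockout ran from 208.25 over 211.815 to 224.38 TPM and unheated wild type from 215.81 over 224.335 to 231.12 TPM. The heated groups did not overlap, and the knockout was 1.54-fold higher than wild type after heat (log2 0.61 ± 0.07, adjusted p = 1.15e-07). The fall was 3.15-fold in the knockout and 5.07-fold in wild type, and the heat effects differed by 0.67 ± 0.09 (adjusted p = 1.96e-06).

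Of 21 MAGE genes tested, Mageb4 itself included, 17 rose and 3 fell with heat in the knockout, and 18 rose and 2 fell in wild type. The shares of all entries that rose were 40.3% in the knockout and 46.4% in wild type. In wild type the change of Maged1 was 2.33 and that of Magea5 2.76 on the log2 scale. Mageb5 and Mageb3 fell, by 1.20 and 0.30 in the knockout and by 2.65 and 0.90 in wild type. Of 3 RING partners of MAGE proteins outside the TRIM family, Pja1 and Lnx1 rose in both genotypes (log2 1.03 and 1.04 in the knockout, 1.46 and 1.56 in wild type). Nsmce1, which pairs with the SMC5/6 subunit Nsmce3, fell (-1.19 in the knockout and -1.84 in wild type). Of 5 genes of the Trim28 silencing complex, Cbx3 rose and Setdb1, the H3K9 methyltransferase, fell in the knockout while 3 did not pass. In wild type all 5 rose, Setdb1 by 0.20 and Atf7ip by 0.93. TRIM proteins under other symbols went both ways, as all entries did (40.2% fell in the knockout and 44% in wild type). Mid1, Mid2 and Pml rose in both genotypes and Bspry fell, by 0.59 in the knockout and 1.57 in wild type.

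The TIF1 class, which joins the tripartite motif to a PHD finger and a bromodomain and holds chromatin regulators, fell as a whole: 4 of 4 in each genotype, beside 40.2% of all entries in the knockout and 44% in wild type. Trim24, a nuclear receptor coregulator, had 41.29, 34.71, 34.45, 42.07 and 47.84 TPM in heated knockout and 43.01, 43.66, 41.48 and 43.19 TPM in heated wild type. Unheated values were 102.07 to 114.23 TPM with a median of 108.23 in the knockout and 105.74 to 125.34 TPM with a median of 111.49 in wild type. As for Trim28, the fall was of like size in both genotypes (log2 -1.42 ± 0.07 in the knockout and -1.37 ± 0.07 in wild type), with a difference of -0.05 ± 0.10 (adjusted p = 0.634). Trim33, a TGF-beta pathway regulator, fell further in the knockout, to 13.7 to 20.18 TPM in heated knockout against 27.19 to 29.56 TPM in heated wild type (difference of the heat effects -0.57 ± 0.12, adjusted p = 2.00e-04). Trim66, which binds HP1 and is known from haploid germ cells, showed the reverse: 8.45 to 10.96 TPM in heated knockout and 1.63 to 3.13 TPM in heated wild type, against 15.2 ± 0.288 TPM in unheated knockout and 15.1 ± 1.03 TPM in unheated wild type.

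A group of members fell strongly in heated wild type and stayed near the unheated level in the heated knockout. Trim36 (chromosome 18 at 46165300 to 46212607), or haprin, acts in the acrosome reaction of mouse sperm. It was at 574.44, 424.4, 465.92, 413.47 and 519.22 TPM in heated knockout and at 81.35, 22.7, 26.66 and 35.5 TPM in heated wild type. Without heat it ran from 470.86 over 515.54 to 555.69 TPM in the knockout and from 492.12 over 531.565 to 562.33 TPM in wild type. The heated knockout overlapped the unheated libraries, and each heated wild-type library lay far below them. The log2 change with heat was -0.11 ± 0.20 in the knockout (adjusted p = 0.624) and -3.81 ± 0.21 in wild type (adjusted p = 1.69e-13). After heat the knockout was 11.5-fold higher than wild type.

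Trim80 (chromosome 11 at 115440545 to 115448270) had the largest positive difference of heat effects among the members on the log2(TPM + 1) scale, 3.95 ± 0.32 (adjusted p = 2.04e-09). Its TPM was 157.29, 128.36, 162.97, 126.16 and 150.88 in heated knockout and 22.77, 5.47, 5.51 and 7.7 in heated wild type. Unheated knockout ran from 152.92 over 157.76 to 182.84 TPM and unheated wild type from 138.01 over 169.325 to 185.06 TPM. After heat the knockout was higher than wild type by 3.91 ± 0.24 on the log2 scale. The fall with heat in wild type was 16.2-fold, or 26.9-fold without heated wild-type replicate 1, the highest of its group.

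Trim42 (chromosome 9 at 97349562 to 97369958), a testis gene of the COS box class, showed the same pattern at a lower level. It had 45.33, 33, 37.14, 31.86 and 41.09 TPM in heated knockout and 5.38, 1.05, 1.17 and 1.66 TPM in heated wild type, against 34.57 to 41.32 TPM (median 37.15) in unheated knockout and 35.27 to 43.5 TPM (median 38.515) in unheated wild type. With heat the log2 change was -0.001 ± 0.19 in the knockout and -3.75 ± 0.21 in wild type, a difference of 3.75 ± 0.28 (adjusted p = 8.50e-10). The fall in wild type was 16.8-fold, or 30.1-fold without heated wild-type replicate 1.

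Trim17, first described as a testis RING finger protein, was at 131.84, 118.53, 134.96, 109.82 and 130.05 TPM in heated knockout and at 29.45, 14.37, 16.67 and 22.03 TPM in heated wild type. Its unheated range was 146.57 to 162.22 TPM (median 149.705) in the knockout and 135.94 to 164.39 TPM (median 158.195) in wild type. It fell 1.21-fold in the knockout (log2 -0.28 ± 0.12, adjusted p = 0.0324) and 7.52-fold in wild type. The call in the knockout was lost with no filter (adjusted p = 0.0564), and without heated knockout replicate 2 or 4 or unheated knockout replicate 4 (0.0608 to 0.0894), and the sign turned with quantile normalization (0.074, adjusted p = 0.553). Trim45, with a filamin-type domain, averaged 26.5 ± 3.47 TPM in heated knockout and 4.14 ± 1.26 TPM in heated wild type, against 30.3 ± 1.29 TPM in unheated knockout and 30.1 ± 2.59 TPM in unheated wild type. Its log2 change with heat did not pass in the knockout (-0.19 ± 0.11, adjusted p = 0.0989) and was -2.62 ± 0.11 in wild type. The knockout change passed with median-of-ratios scaling, with the 2 groups alone and without heated knockout replicate 1 or heated wild-type replicate 1 (adjusted p = 0.0344 to 0.0487).

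Other members fell in both genotypes and further in wild type. Trim69, a testis-enriched ligase of the PRY-SPRY class, had the largest fall of the family. It was at 36.89, 24.28, 28.12, 24.32 and 45.82 TPM in heated knockout and at 9.02, 2.68, 3.98 and 8.18 TPM in heated wild type, against 141.57 to 157.9 TPM (median 149.44) in unheated knockout and 145.56 to 172.08 TPM (median 153.115) in unheated wild type. The fall was 4.68-fold in the knockout and 25.9-fold in wild type (difference of the heat effects 2.37 ± 0.29, adjusted p = 3.45e-07), and no heated group overlapped another group.

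Trim37, a MATH-domain ligase that limits centriole assembly, had 155.83, 132.98, 132.24, 133.4 and 164.83 TPM in heated knockout and 73.28, 51.46, 64.12 and 88.99 TPM in heated wild type. Unheated knockout held 298.72 to 338.26 TPM (median 324.25) and unheated wild type 311.86 to 354.16 TPM (median 324.39). It fell 2.25-fold in the knockout and 4.72-fold in wild type, with no overlap between the heated genotypes. Trim11, which lies next to Trim17 on chromosome 11, had 18.25, 16.59, 17.18, 16.11 and 17.24 TPM in heated knockout and 10.49, 9.77, 9.92 and 12.89 TPM in heated wild type, against 38.91 to 46.15 TPM (median 40.24) in unheated knockout and 39.52 to 44.41 TPM (median 43.07) in unheated wild type. Its heat effects differed by 0.66 ± 0.10 (adjusted p = 2.96e-06).

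**Figure D2:**
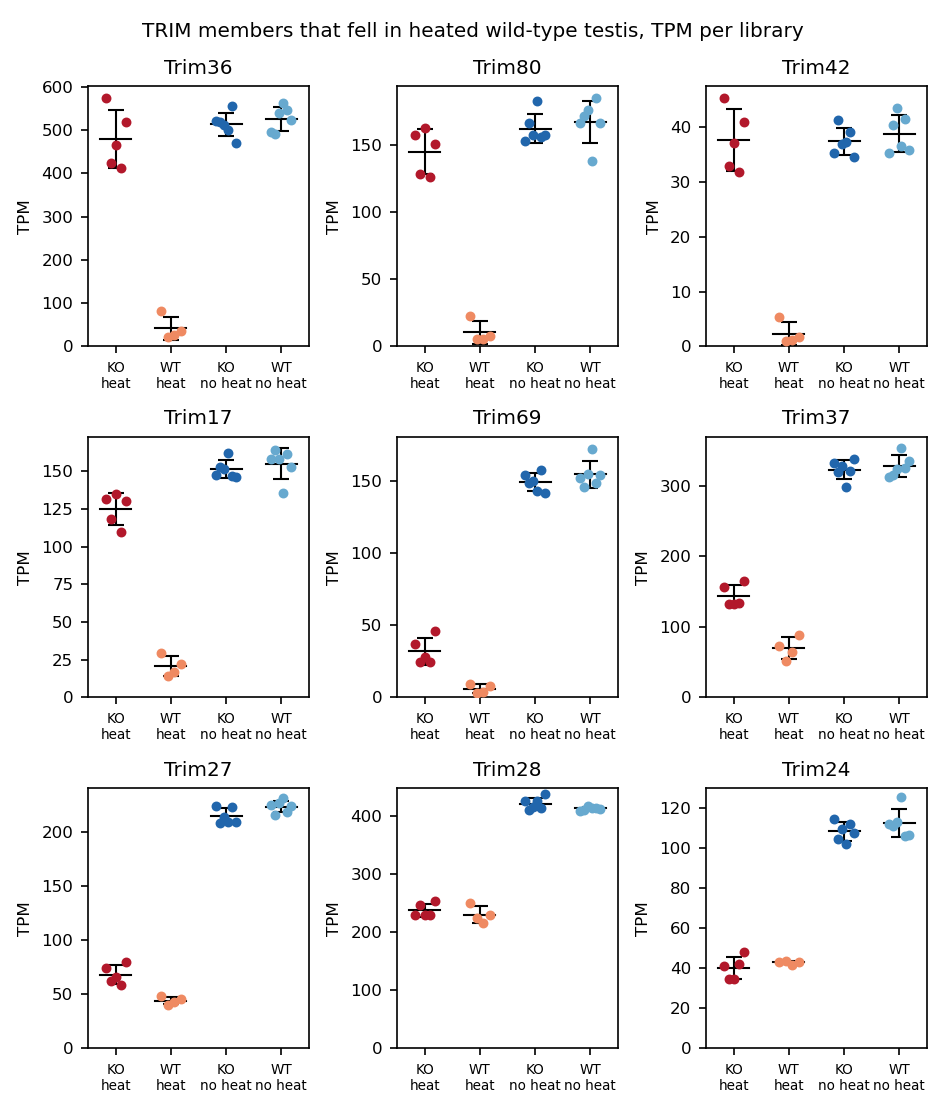
TPM per library (points) of 9 TRIM members in heated knockout, heated wild type, unheated knockout and unheated wild type testis, with the mean and SD as lines. Trim36, Trim80, Trim42 and Trim17 stand high in the heated knockout and low in heated wild type, Trim69, Trim37 and Trim27 are intermediate in the heated knockout, and the heated genotypes overlap for Trim28 and Trim24.

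Further members also fell in both genotypes. Trim41, Trim59 and Trim13 fell by 0.77, 0.54 and 0.97 on the log2 scale in the knockout and by 0.72, 0.52 and 0.81 in wild type, and their heat effects did not pass the test of a difference (-0.05 ± 0.12, -0.02 ± 0.12 and -0.15 ± 0.10). Without heated knockout replicate 5 the difference passed for Trim13 (adjusted p = 0.0285). Trim39, Trim52, Trim46, Trim54 and Trim38 fell in both, each by more in wild type. Of these Trim46, which organises microtubules in axons, changed most, with a fall of 2.15-fold in the knockout and 5.64-fold in wild type.

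The list of members known from interferon response and innate immunity rose: 10 of 13 rose and 1 fell in the knockout (median log2 0.86), and 12 rose and 1 fell in wild type (median 1.92). Among all entries 40.3% rose and 40.2% fell in the knockout, and 46.4% rose and 44% fell in wild type. The exception was Trim38, which fell in both. This list overlaps the TRIM genes of chromosome 7, where 8 members lie between 104218793 and 104507849 of mm10, a stretch of 289.1 kb. Many interferon-regulated promoters carry the interferon-stimulated response element. Its core (GAAA, any 2 bases, GAAA) was searched on both strands from 250 bases before to 50 after each annotated start (RefSeq, GRCm38.p6). Windows were matched for 40 of 50 members. The core was in windows of 9 of the 40 (22.5%), against 3.99% of 27025 genes. Of the 12 interferon list members with a window 8 held it, and of the other 28 members 1 did, Trim2. In the chromosome 7 cluster 6 of 8 members held it, all but Trim6 and Trim34b. Members without the core rose as well. Of the interferon list members whose windows lack it, Trim25, Trim56 and Trim34b rose in wild type (log2 2.84, 1.99 and 1.37) and Trim38 fell (-0.85). The cAMP response element TGACGTCA, bound by CREM in spermatids, was in 2 of the 40 (5%), Trim26 and Trim52, against 2.03% of genes. A match is a description of letters and shows no binding.

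The stretches below hold the core in members of the interferon list. All members shown rose in wild type, as did 29 of all 50 members, and all shown but Trim30d rose in the knockout. Trim2, outside that list, held the core and rose in wild type (log2 1.98) but is not shown. The stretches run 5′ to 3′ on the strand of the gene, with the core in capitals (TTTC, any 2 bases, TTTC where it lies on the opposite strand). In Trim26 the cAMP response element is in capitals too. The start site is the base after position -1, and all but Trim26 run from 70 bases before to 30 after it.
Trim34a (chr7:104244387-104244486, plus strand): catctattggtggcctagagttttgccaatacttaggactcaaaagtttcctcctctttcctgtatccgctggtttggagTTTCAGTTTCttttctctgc
Trim5 (chr7:104288077-104288176, minus strand): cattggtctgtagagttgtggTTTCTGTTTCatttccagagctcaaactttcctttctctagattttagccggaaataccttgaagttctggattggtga
Trim12a (chr7:104315466-104315565, minus strand): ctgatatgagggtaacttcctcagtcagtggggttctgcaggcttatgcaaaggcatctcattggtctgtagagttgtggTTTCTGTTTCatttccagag
Trim12c (chr7:104353320-104353419, minus strand): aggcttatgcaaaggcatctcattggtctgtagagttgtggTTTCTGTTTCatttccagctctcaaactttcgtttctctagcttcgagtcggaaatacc
Trim30a (chr7:104465164-104465263, minus strand): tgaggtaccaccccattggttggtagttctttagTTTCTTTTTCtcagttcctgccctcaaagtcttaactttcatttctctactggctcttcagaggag
Trim30d (chr7:104507820-104507919, minus strand): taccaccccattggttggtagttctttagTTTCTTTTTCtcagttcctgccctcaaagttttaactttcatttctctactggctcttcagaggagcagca
Trim21 (chr7:102565453-102565552, minus strand): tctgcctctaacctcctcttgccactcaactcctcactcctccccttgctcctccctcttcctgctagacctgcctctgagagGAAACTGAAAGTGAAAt
Trim26 (chr17:36836966-36837085, plus strand): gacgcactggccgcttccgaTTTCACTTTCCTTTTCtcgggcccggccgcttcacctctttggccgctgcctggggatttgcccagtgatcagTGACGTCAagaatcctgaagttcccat

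Trim5, Trim12a and Trim12c share the letters around the core, as do Trim30a and Trim30d, so these windows are not separate cases. In Trim5 the core begins 49 bases before the annotated start, in Trim12c 29 bases and in Trim30a 36 bases before it, and in Trim12a and Trim34a 11 bases into the transcript. Both cores of Trim21 overlap, as do both of Trim26.

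**Figure D3:**
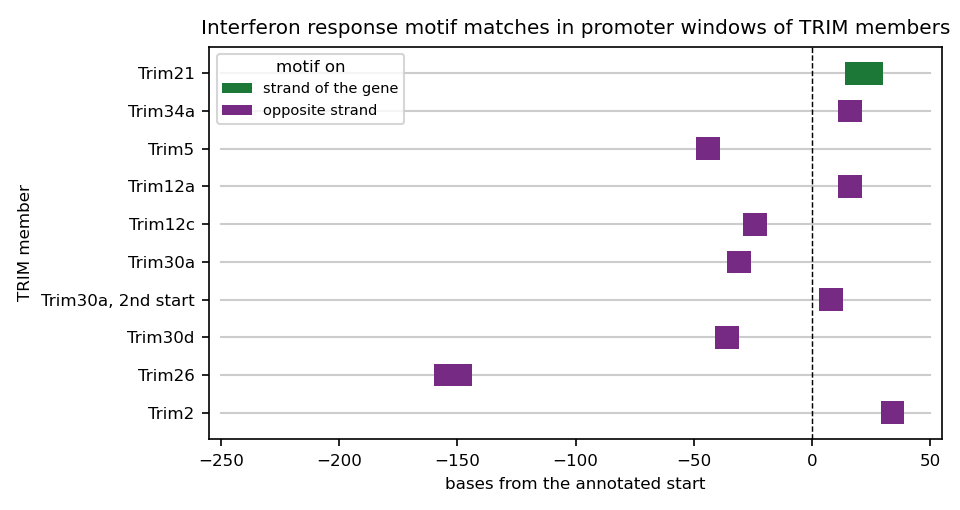
Positions of interferon response motif matches relative to the annotated start (dashed line) in the promoter windows of 9 TRIM members, coloured by strand, with grey lines for the window and another annotated start of Trim30a on a line of its own. Apart from Trim26, whose matches lie 160 and 154 bases upstream, the matches lie within 50 bases of a start.

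In the transcripts, close copies can share reads. Of all 75-base stretches in the longest coding transcript, 13.5% in Trim12a, 16.4% in Trim12c, 22% in Trim5, 31.2% in Trim34a and 44.8% in Trim34b also occur in another gene, so their values are uncertain apart from each other. Trim17 shares 17.7% with histone genes, one of which it overlaps. Of the 50 members 38 share under 1%.

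Trim12a and Trim12c are relatives of the primate restriction factor TRIM5. Trim12a stood at 7.49, 7.9, 7.09, 9.88 and 8.11 TPM in heated knockout and at 16.64, 24.07, 19.9 and 18.57 TPM in heated wild type, against 2.2 to 3.22 TPM (median 2.795) in unheated knockout and 1.34 to 2.13 TPM (median 1.8) in unheated wild type. No group overlapped another. The rise was 2.98-fold in the knockout and 11.1-fold in wild type, and the difference of the heat effects, -1.61 ± 0.14 (adjusted p = 7.06e-09), was the most negative of the family on the log2(TPM + 1) scale. Trim12c had 3.69, 3.91, 3.03, 5 and 3.78 TPM in heated knockout and 8.27, 11.65, 9.53 and 8.36 TPM in heated wild type, against 1.13 to 1.52 TPM (median 1.205) in unheated knockout and 0.73 to 1.4 TPM (median 0.995) in unheated wild type.

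Trim25, which ubiquitinates the RNA sensor RIG-I, had 10.96, 14.91, 10.55, 17.28 and 11.59 TPM in heated knockout and 30.49, 37.88, 29.06 and 29.54 TPM in heated wild type. The unheated range was 3.9 to 5.41 TPM (median 4.145) in the knockout and 3.14 to 3.9 TPM (median 3.535) in wild type. Heated wild type was above all other libraries, and the heated knockout above the unheated ones. After heat the knockout was 2.43-fold lower than wild type (log2 -1.24 ± 0.12, adjusted p = 8.38e-09). Trim26, in the MHC region of chromosome 17, had 37.47, 46.36, 40.79, 50.88 and 43.52 TPM in heated knockout and 87.56, 101.89, 86.39 and 83.23 TPM in heated wild type, against 14.48 to 18.49 TPM (median 15.76) in unheated knockout and 11.61 to 15.14 TPM (median 13.315) in unheated wild type.

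Trim21, an intracellular antibody receptor, rose 3.29-fold in the knockout and 7.02-fold in wild type. Trim34a rose 3.57-fold and 9.09-fold, Trim30a 2.38-fold and 7.14-fold, and Trim56 2.64-fold and 7.57-fold in the same order. Trim14, an antiviral adaptor without a RING, had a log2 change of -0.08 ± 0.10 in the knockout (adjusted p = 0.424) and 0.93 ± 0.10 in wild type. Trim30d did not pass in the knockout either (0.16 ± 0.10, adjusted p = 0.135) and rose by 0.73 ± 0.10 in wild type. The low members Trim34b and Trim5, of the chromosome 7 cluster, rose by 0.74 ± 0.08 and 0.48 ± 0.10 in the knockout and by 1.37 ± 0.08 and 1.18 ± 0.10 in wild type.

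Members outside the interferon list rose too. Trim47 was at 19.91, 32.92, 28.84, 37.45 and 20.29 TPM in heated knockout and at 60.76, 56.27, 49.28 and 48.83 TPM in heated wild type, against 5.96 to 11.14 TPM (median 7.815) in unheated knockout and 4.84 to 7.3 TPM (median 5.73) in unheated wild type. Its rise was 3.44-fold in the knockout and 9.01-fold in wild type, and the heated groups did not overlap. Trim47 overlaps Trim65 on the same strand of chromosome 11, and Trim65 rose as well, 2.73-fold and 6.15-fold.

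Trim7, which binds glycogenin, had 46.02, 64.59, 52.02, 75.79 and 49.7 TPM in heated knockout and 120.94, 132.12, 113.68 and 108.25 TPM in heated wild type. Unheated knockout held 14.84 to 19.18 TPM (median 17.145) and unheated wild type 11.78 to 18.13 TPM (median 14.295). Its log2(TPM + 1) change of 1.69 ± 0.12 was the largest rise of the family in the knockout on that scale, and it was 2.97 ± 0.12 in wild type. As a ratio of mean TPM the rise in the knockout was 3.41-fold, below those of Trim34b (4.65-fold), Trim2 (4.31-fold), Trim34a and Trim47. Trim35 rose alongside, to 62.5 ± 11.7 TPM in heated knockout and 124 ± 13.0 TPM in heated wild type, against 23.9 ± 2.16 TPM in unheated knockout and 19.9 ± 0.600 TPM in unheated wild type. Trim44, which like Trim14 has no RING, had 18.53 to 29.85 TPM in heated knockout and 45.96 to 52.3 TPM in heated wild type, against 14.34 to 16.39 TPM in unheated knockout and 13.22 to 15.95 TPM in unheated wild type. Trim68, Trim50, Trim8, Trim6, Trim62 and Trim9 rose in both genotypes, by 0.29 (Trim62) to 0.99 (Trim68) in the knockout and 0.39 (Trim62) to 1.80 (Trim68) in wild type. Trim23, which carries an ARF domain, did not pass in the knockout (-0.13 ± 0.09, adjusted p = 0.221) and rose by 0.54 ± 0.10 in wild type.

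The NHL-repeat class, ligases with a propeller-like domain, rose in 4 of 4 members in each genotype, beside 40.3% of all entries in the knockout and 46.4% in wild type. The median log2 change of the class was 0.84 in the knockout and 1.90 in wild type. Trim2, known from neurons, was at 1.2, 1.35, 1.2, 2.01 and 0.96 TPM in heated knockout and at 3.34, 5.88, 4.21 and 3.93 TPM in heated wild type, against 0.19 to 0.41 TPM (median 0.315) in unheated knockout and 0.23 to 0.61 TPM (median 0.29) in unheated wild type. Trim32, mutated in a human muscular dystrophy, rose 2.33-fold in the knockout and 4.97-fold in wild type, and Trim3 2.13-fold and 4.92-fold. Trim71, or LIN41, a regulator of stem and early germ cells, was low but also rose, with 1.10 ± 0.167 TPM in heated knockout and 1.90 ± 0.112 TPM in heated wild type against 0.655 ± 0.0940 TPM in unheated knockout and 0.592 ± 0.0920 TPM in unheated wild type.

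**Figure D4:**
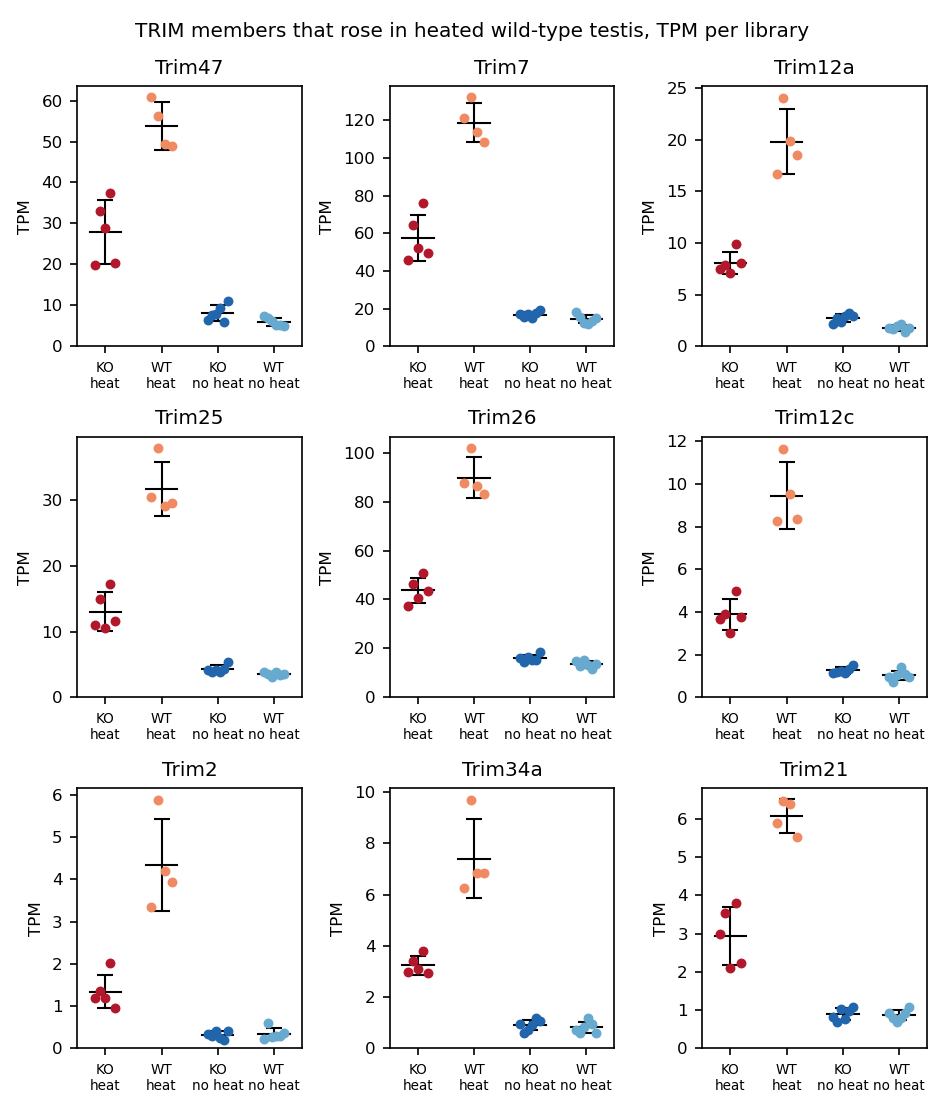
TPM per library (points) of 9 TRIM members in heated knockout, heated wild type, unheated knockout and unheated wild type testis, with the mean and SD as lines. In each panel the heated wild-type libraries are highest and the heated knockout libraries lie between them and the unheated ones.

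Compared directly after heat, 45 of 50 members differed between genotypes: 15 were higher and 30 lower in the knockout than in wild type (limma, adjusted p under 0.05), beside 80.4% of all entries (33.2% higher and 47.2% lower). Without heated wild-type replicate 3, 13 members were higher and 30 lower. With all libraries, 9 were higher (18%, against 14.3% of all entries) and 6 lower (12%, against 5.79%) by at least 1 on the log2 scale. All 9 were named above: Trim36, Trim80, Trim42, Trim17, Trim45, Trim69, Trim66, Trim46 and Trim37. The 6 were Trim25, Trim12a, Trim2, Trim12c, Trim7 and Trim26. The 15 higher members were among the 21 that had fallen with heat in wild type, and 28 of the 30 lower ones among the 29 that had risen. Both comparisons contain the heated wild-type libraries. Some calls after heat were fragile. Trim38 (adjusted p = 0.028) was lost with no filter, with quantile normalization and without heated knockout replicate 1 or 5 or heated wild-type replicate 2 or 3 (0.0503 to 0.534). Trim13 (0.0416) was lost with no filter, either other scaling or the 2 groups alone, and without heated knockout replicate 2, 3 or 4 or heated wild-type replicate 2 or 4 (0.0533 to 0.671). Trim39 (0.0142) was lost without heated wild-type replicate 3 (0.0547), Trim9 (0.00869) without heated wild-type replicate 2 (0.0505) and Trim8 (0.0148) with median-of-ratios scaling (0.0621). The genotypes did not pass for Trim28, Trim24, Trim41, Trim59 and Trim62, with differences of 0.05 ± 0.04, -0.10 ± 0.08, -0.06 ± 0.09, -0.05 ± 0.09 and -0.03 ± 0.09. The signs for these 5 members turned under at least 1 alternative. Trim28 passed with median-of-ratios scaling (0.127, adjusted p = 0.00608) and Trim24 without heated knockout replicate 5 (-0.17, adjusted p = 0.0251).

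Without heat the genotypes were close. Of 50 members 1 passed (2%), Trim12a, and it was higher in the knockout. Of all entries 0.946% passed. Trim12a was 1.52-fold higher in unheated knockout than in unheated wild type (log2 0.42 ± 0.09, adjusted p = 0.0403), and the 6 knockout libraries lay above the 6 wild-type ones. The same separation held for Trim35 (22.11 to 28.11 TPM in unheated knockout and 19.07 to 20.5 TPM in unheated wild type) and Trim32 (9.3 to 11.92 TPM and 8.04 to 8.74 TPM, in the same order), so for 3 of 50 members (6%) and for 4.48% of all entries. Trim35 and Trim32 did not pass (adjusted p = 0.153 for each) and passed with the 2 groups alone (0.021 and 0.0356). Of the 10 Sertoli cell markers 3 were called higher in unheated knockout and the other 7 had positive differences that did not pass. Of the 7 Leydig cell markers 2 were called higher there and the other 5 had positive differences that did not pass. The part of these lists in the TRIM values was not tested. The Trim12a call was lost with no filter, quantile normalization or the replicate number as a block (adjusted p = 0.0702, 0.076 and 0.053). It was also lost without unheated knockout replicate 2, 3, 4, 5 or 6, unheated wild-type replicate 1, 2, 3, 5 or 6, or heated wild-type replicate 3 (0.05 to 0.119). At an unadjusted p under 0.05 there were 10 of the 50 members, beside 3272 of all 21450 entries. Trim27 and Trim28 differed by -0.06 ± 0.06 and 0.03 ± 0.04 (adjusted p = 0.762 and 0.831). Trim36, Trim80, Trim42 and Trim17, which differed most after heat, had differences of -0.05 to -0.03 without it.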

How the data were processed

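Whole-testis RNA was sequenced from stranded mRNA libraries, per the labels' protocols. The submitters' processing notes name STAR and mm10, without a version, an annotation or a quantifier. The authors deposited TPM values, 1 column per library, which fix the sum of each library and so make every level relative. Values were transformed to log2(TPM + 1), which understates changes of low genes. The 21450 entries with a mean of at least 0.5 TPM, the floor of the member rule, were fitted by limma 3.58.1 (R 4.3.3) as 4 group means in 1 model (empirical Bayes with trend), and p-values were adjusted by Benjamini-Hochberg over all entries in each of 5 comparisons. The fit was run on simulated data with the spread of the unheated libraries and few changed entries. That setting differs from the heated comparisons, so it checks the code and not the error rate there. Errors of log2 changes are moderated standard errors, those of TPM are SD, and folds are ratios of group mean TPM. All 50 members passed the floor and matched GENCODE M21 names, used for coordinates on mm10.

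Members, gene lists and tests were chosen with earlier results of these data known. Values in every heated library, with the range and median of the unheated groups, are given for the members with a described MAGE partner, the 3 with the highest mean, the 4 largest called rises and falls in each heat effect, in knockout against wild type after heat and in the difference of the heat effects, and every called member without heat. Trim45, Trim35, Trim33, Trim66 and others named with group values come from the class lists. Alternatives were other pseudocounts, filters, scalings, moderation, a replicate block, fits of 2 groups, and leaving out each library. 18 TRIM symbols under the floor were not tested.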

Additional observations from a re-analysis of the deposited data

Results flagged for a closer look

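Libraries far from the others of their group were looked for in 68 groups of values (17 members in 4 groups), where chance gives about 1 in 20, and 7 were found. Unheated wild-type replicate 4 was high for Trim69 (172.08 TPM, others 145.56 to 155.23) and Trim24 (125.34 TPM, others 105.74 to 113.03). Heated wild-type replicate 1 was high for Trim80 (22.77 TPM, others 5.47 to 7.7) and Trim42 (5.38 TPM, others 1.05 to 1.66). Trim25 was high in heated wild-type replicate 2 (37.88 TPM, others 29.06 to 30.49) and in unheated knockout replicate 6 (5.41 TPM, others 3.9 to 4.37). Trim2 was high in unheated wild-type replicate 2 (0.61 TPM, others 0.23 to 0.37).

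The 17 members with values given for every heated library were chosen in part by the size of this same difference, so their count is not a test. The heat effect differed between genotypes, by the direct test of the difference, for 15 of the 17, where 77% of all entries passed. Knockout minus wild type on the log2 scale, it was 3.95 for Trim80, 3.75 for Trim42, 3.71 for Trim36, 2.62 for Trim17, 2.37 for Trim69, 1.08 for Trim37, 0.67 for Trim27 and 0.66 for Trim11. It was -1.61 for Trim12a, -1.46 for Trim25, -1.33 for Trim47, -1.27 for Trim7, -1.26 for Trim26, -1.26 for Trim12c and -1.15 for Trim2.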

How the results depend on the processing

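The member counts of the 2 heat effects, of knockout against wild type after heat and of the difference of the heat effects stayed within 1.5 times the reported ones under 9 alternatives and 21 left-out libraries. With heat in the knockout 41 of 43 member calls held under each of these in which they were tested (not Trim17 and Trim63). The same held in wild type for 50 of 50, after heat for 40 of 45 and for the difference for 43 of 43. A higher filter left the lowest members untested, and the difference has no fit of 2 groups. Without heat the calls were unstable. The members higher in the knockout numbered 0 with no filter, quantile normalization or the replicate block and 3 with the 2 groups alone, in place of 1, and 0 to 1 as libraries were left out. All genes called there numbered 380 with a pseudocount of 0.1, 80 with no filter, 60 with quantile normalization and 1195 with the 2 groups alone, in place of 203, and 18 to 456 as libraries were left out. Quantile normalization turned the sign for Trim17 with heat in the knockout (0.074 in place of -0.28) and for the Trim28 difference of the heat effects (-0.13 in place of 0.02). For these the cause was not tested. Deviations of same-numbered libraries from their group means correlated at -0.198 to 0.281. Between the heated groups 2 of 4 libraries correlated best with the library of their own number. The labels tie no number to shared animals or days, so the numbers were not taken as pairs. TPM hides read depth, which limits statements on members near 1 TPM.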
